A study of Mus musculus with 6 samples.

Results

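The genes described here are 10 antagonists of Wnt signaling, namely Dkk1, Dkk2, Dkk3, Sfrp1, Sfrp2, Sfrp4, Frzb, Wif1, Dact1 and Dact3. They were chosen by gene symbol among the 53342 genes of the count table, and all 10 were among the 24534 genes that passed the filter on low counts. RNA was sequenced from the dental pulp of 3 WT and 3 MMP13KO mice of the C57BL/6 strain, aged 3 months. The MMP13KO mice are homozygous for the loss of matrix metalloproteinase 13, a collagenase, and the study's mice were male. The study describes the 3 samples of a genotype as independent biological samples, which carry the numbers 2, 4 and 5 in WT and 1, 2 and 6 in MMP13KO. Pulp came from molars and RNA from an RNeasy column according to the labels, but from incisors with TRIzol according to the study's methods.

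Canonical Wnt ligands bind a Frizzled receptor together with the co-receptor Lrp5 or Lrp6, recruit Dishevelled and so protect beta-catenin from degradation. Secreted antagonists act before that step. Sfrp proteins, Frzb and Wif1 bind the Wnt ligand, and Dkk1 and Dkk2 bind Lrp5 and Lrp6 with the help of Kremen proteins. Dact proteins act inside the cell, where they bind Dishevelled. In teeth, Wnt signaling takes part in tooth development and in the differentiation of odontoblasts, the cells that make dentin.

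Library totals were 21561420 to 29980236 estimated counts, and the lowest count of any of the 10 genes was 108, for Dkk1 in WT 5. Mmp13 stood at 30.2 to 39.2 CPM (counts per 1000000 of the TMM-scaled library total) in WT and at 0.323 to 2.34 CPM in MMP13KO. Dspp encodes main non-collagenous proteins of the dentin matrix, made by odontoblasts. It reached 524 to 1646 CPM in WT and 1571 to 2422 CPM in MMP13KO, so this defining odontoblast marker was present in every sample. The 8 odontoblast markers did not move together. At an adjusted p under 0.05, Dspp, Phex and Mepe were higher in MMP13KO and Nes, Sp7 and Alpl were lower. Dmp1 and Bglap did not pass the test. Markers of other cell types differed in summed level between the genotypes. The 8 skeletal muscle markers summed to 95214 to 111822 CPM in WT and to 25725 to 56846 CPM in MMP13KO, with 6 of them lower. The 8 bone marrow myeloid markers summed to 138 to 292 CPM in WT and to 699 to 1733 CPM in MMP13KO, with 7 higher, and the 7 erythroid markers to 895 to 1456 and 2114 to 3967 CPM, with 6 higher. The 8 pulp mesenchyme markers summed to 14893 to 23468 CPM in WT and to 9297 to 12961 CPM in MMP13KO, with 3 lower and 4 higher. Cartilage markers, 3 lower and 1 higher of 7 tested, summed to 130 to 157 and 75.2 to 89.9 CPM, and no gene of these lists was at 0 in all samples of a genotype. Beside these counts, 24.3% of all genes tested were lower and 27.3% higher at an adjusted p under 0.05. The part of these markers in the results below was not tested, and in bulk tissue fewer cells of a type and less RNA per cell cannot be told apart. MMP13KO 6 stood apart, with 53.7% of its counts in its 10 most abundant genes against 22.6% to 27.2% in the other samples.

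Of the 10 antagonists, 5 fell and 2 rose in MMP13KO, and 3 did not pass the test. Dact3 fell most, by 2.10 on the log2 scale (SE 0.15), followed by Dact1 and Sfrp1, while Dkk1 rose by 1.05 (SE 0.23). Dkk3 and Sfrp2 fell by less than 2-fold and Wif1 rose by less than 2-fold, whereas Dkk2, Sfrp4 and Frzb had adjusted p from 0.280 to 0.652 (quasi-likelihood test of edgeR, Benjamini-Hochberg adjusted over all genes tested). Among all 24534 genes tested, 24.3% were lower and 27.3% higher at an adjusted p under 0.05. Changes over 2-fold were 3 lower and 1 higher among the 10, against 9.68% lower and 20.4% higher of all genes. The median log2 fold change was -0.32 over the 10 genes and 0.10 over all genes tested. In 5 of the 10 genes every MMP13KO sample was below every WT sample, and in 2 every MMP13KO sample was above, where 29.1% and 31.8% of all genes tested had no overlap in these directions. Without MMP13KO 6, the count was 4 lower and 2 higher, as Dkk3 had an adjusted p of 0.0524. Without WT 4 or without MMP13KO 1, 3 were lower and 1 higher. Lower and higher over all genes were 5922 and 6845 of 24934 without MMP13KO 6. They were 5086 and 5829 of 26952 without WT 4, and 5671 and 6610 of 26069 without MMP13KO 1.

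**Figure D1:**
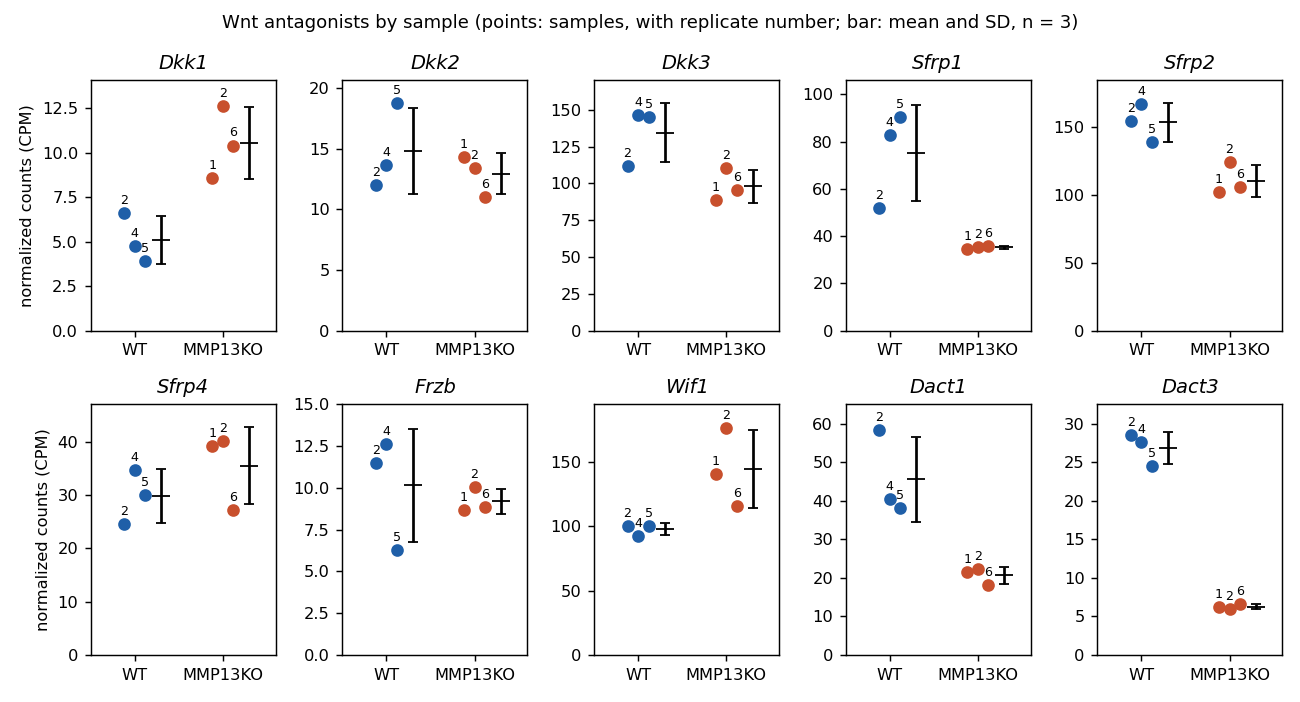
Normalized counts (CPM, vertical axis from 0 in each panel) of the 10 Wnt antagonists in each sample, with the replicate number beside each point and the mean and SD (n = 3) of each genotype as a bar. The genotypes are separate for Dkk1 and Wif1, higher in MMP13KO, and for Dkk3, Sfrp1, Sfrp2, Dact1 and Dact3, lower in MMP13KO.

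Dkk1 blocks canonical signaling by occupying Lrp5 and Lrp6, and is also a known target of the pathway it blocks. The gene (ENSMUSG00000024868) lies at chr19:30545863-30549665 of GRCm38, on the minus strand. It stood at 6.59, 4.75 and 3.94 CPM in WT 2, 4 and 5, and at 8.58, 12.6 and 10.4 CPM in MMP13KO 1, 2 and 6. All 3 MMP13KO samples were above all 3 WT samples. The ratio of the means was 2.07, with a log2 fold change of 1.05 (SE 0.23, adjusted p = 0.00403). Dkk1 passed the test under all 18 alternative settings, with log2 fold changes from 0.82 to 1.25, and was under 2-fold without WT 4 (0.96), WT 5 (0.82) or MMP13KO 2 (0.83), with TMM factors taken without the most abundant genes (0.97) and with no filter (0.94). Of the counts at Dkk1, 0.306% to 0.316% in WT and 1.20% to 6.56% in MMP13KO equalled the background rate, the counts per kilobase over 1949 olfactory and vomeronasal receptor genes. That these receptor counts are background is an assumption that was not tested. The study lists odorant receptors among the pathways upregulated in MMP13KO.

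The promoter of Dkk1 was examined for the core letters bound by TCF/LEF factors, the DNA-binding partners of beta-catenin, because Dkk1 is a known Wnt target. RefSeq promoter windows on GRCm38.p6, 250 bases before to 50 after the start, were matched for 7 of the 10 genes, not for Dkk3, Sfrp1 or Sfrp4. The letters CTTTGA, or TCAAAG on the other strand, occurred in the windows of Dkk1 and Frzb and not in those of Dkk2, Sfrp2, Wif1, Dact1 and Dact3. They occurred in 16.003% of 32851 RefSeq windows. The matches in Dkk1 began 174 and 117 bases before the RefSeq start, at chr19:30549653-30549682 and chr19:30549596-30549625, and the match in Frzb began 95 bases before it, at chr2:80447474-80447503, all read on the minus strand. The 30 bases around each match are printed 5′ to 3′, with the match in capitals.
Dkk1, first match: gaggggagagtgTCAAAGtcctccctgctt
Dkk1, second match: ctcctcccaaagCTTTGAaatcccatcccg
Frzb: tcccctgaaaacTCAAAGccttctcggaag
GENCODE places the start of Dkk1 169 bases and that of Frzb 229 bases upstream of the RefSeq start. By the GENCODE starts, the second match of Dkk1 and the match of Frzb lie within the transcribed gene. The first match of Dkk1 reaches the GENCODE start.

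Dkk2 binds the same co-receptors as Dkk1 and acts as an agonist or an antagonist depending on Kremen. Its levels (ENSMUSG00000028031, chr3:132085292-132180304, plus strand) were 11.98, 13.7 and 18.8 CPM in WT and 14.3, 13.4 and 11.0 CPM in MMP13KO. The genotypes overlapped, and the log2 fold change of -0.19 (SE 0.19, adjusted p = 0.439) became 0.01 with upper-quartile factors. Within a library, the ratio of Dkk1 to Dkk2 was 0.550, 0.348 and 0.210 in WT 2, 4 and 5 and 0.599, 0.940 and 0.942 in MMP13KO 1, 2 and 6. This ratio does not depend on how libraries are scaled to each other, and it was higher in every MMP13KO sample. The transcripts of the pair have nearly the same GC content, 45.9% and 45.7%.

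Dkk3 (ENSMUSG00000030772, chr7:112116017-112159057, minus strand) is a divergent member of the family that does not bind Lrp6 as Dkk1 does. It was the most abundant Dkk gene, at 112, 147 and 145 CPM in WT and 88.6, 111 and 95.2 CPM in MMP13KO. The highest MMP13KO sample lay just under the lowest WT sample, at 110.6 against 111.6 CPM. The log2 fold change was -0.46 (SE 0.17, adjusted p = 0.0433), and 7 of 18 alternatives kept it past the threshold. With one sample left out it passed only without WT 2 and without MMP13KO 2, and had adjusted p of 0.0524 without MMP13KO 6, 0.110 without WT 5, 0.112 without MMP13KO 1 and 0.119 without WT 4. Dkk3 was lower in MMP13KO with every scaling, from -0.54 to -0.24, and turned to 0.04 with a correction for transcript GC content.

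Sfrp1, Sfrp2, Sfrp4 and Frzb carry a domain like that of the Frizzled receptors, with which they hold Wnt ligands away from the cell. Sfrp1 (ENSMUSG00000031548, chr8:23411502-23449632, plus strand) stood at 52.0, 82.7 and 90.3 CPM in WT and 34.5, 35.3 and 35.9 CPM in MMP13KO. The MMP13KO samples were nearly equal and all below the WT samples, which spread more widely. The WT mean was 2.13 times the MMP13KO mean, with a log2 fold change of -1.09 (SE 0.20, adjusted p = 0.00153). Sfrp1 passed under all 18 alternatives, from -1.37 to -0.60. The ratio of Sfrp1 to Dkk3, a pair with GC contents of 50.8% and 51.0%, was 0.466, 0.563 and 0.622 in WT and 0.389, 0.319 and 0.377 in MMP13KO, with no overlap. The ratio of Sfrp1 to Sfrp2 overlapped, at 0.337, 0.493 and 0.650 in WT and 0.338, 0.284 and 0.339 in MMP13KO.

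Sfrp2 (ENSMUSG00000027996, chr3:83766321-83774316, plus strand) was the most abundant of the 10 genes in WT. It stood at 155, 168 and 139 CPM in WT and 102, 124 and 106 CPM in MMP13KO, with every MMP13KO sample below every WT sample. Its log2 fold change was -0.47 (SE 0.16, adjusted p = 0.0270), and 9 of 18 alternatives kept it past the threshold. With one sample left out, the adjusted p was 0.0506 without WT 2, 0.0880 without WT 4 and 0.0832 without MMP13KO 1. The direction held with every scaling, from -0.56 to -0.26, and turned to 0.18 (adjusted p = 0.310) with the GC correction. Its exons share 347 bases with Gm26771 on the opposite strand, at which no sample had more than 20.9 counts.

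Sfrp4 and Frzb did not pass the test. Sfrp4 (ENSMUSG00000021319, chr13:19623104-19632994, plus strand) stood at 24.5, 34.7 and 29.9 CPM in WT and 39.1, 40.1 and 27.2 CPM in MMP13KO. MMP13KO 1 and 2 were above the WT samples and MMP13KO 6 was among them. The log2 fold change was 0.26 (SE 0.19, adjusted p = 0.280), and 0.45 with an adjusted p of 0.0357 with upper-quartile factors. Frzb (ENSMUSG00000027004, chr2:80411970-80447625, minus strand), which is also an early marker of cartilage, stood at 11.5, 12.7 and 6.28 CPM in WT and 8.65, 10.1 and 8.85 CPM in MMP13KO. WT 5 was the lowest of all samples and the other WT samples the highest. Its log2 fold change was -0.14 (SE 0.24, adjusted p = 0.652), which became 0.06 with upper-quartile factors, 0.28 with the GC correction and 0.0076 without WT 4.

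Wif1 binds Wnt ligands through a domain of its own that is unrelated to the Frizzled receptors. The gene (ENSMUSG00000020218, chr10:121033960-121100650, plus strand) stood at 101, 92.5 and 101 CPM in WT and 141, 176 and 116 CPM in MMP13KO. WT samples were close to each other and all below the MMP13KO samples, which spread more widely. The MMP13KO mean was 1.47 times the WT mean, with a log2 fold change of 0.56 (SE 0.18, adjusted p = 0.0228). The direction was the same under all 18 alternatives, from 0.34 to 0.94, of which 10 passed the threshold. With one sample left out Wif1 passed only without MMP13KO 6 (adjusted p = 0.0023), and had adjusted p of 0.0982 without WT 2, 0.116 without WT 4, 0.118 without WT 5, 0.0772 without MMP13KO 1 and 0.174 without MMP13KO 2. The ratio of Wif1 to Sfrp1 was 1.93, 1.12 and 1.11 in WT and 4.08, 4.996 and 3.23 in MMP13KO, with no overlap. The ratio of Wif1 to Frzb, of nearly the same GC content (49.7% and 50.3%), overlapped, at 8.74, 7.31 and 16.01 in WT and 16.3, 17.5 and 13.1 in MMP13KO.

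Dact1 and Dact3 are the members of the list that work inside the cell, by binding Dishevelled. Dact1 (ENSMUSG00000044548, chr12:71309884-71320107, plus strand) stood at 58.3, 40.4 and 38.2 CPM in WT and 21.5, 22.4 and 18.2 CPM in MMP13KO. Every MMP13KO sample was below every WT sample, and WT 2 was the highest. The WT mean was 2.21 times the MMP13KO mean, with a log2 fold change of -1.14 (SE 0.19, adjusted p = 0.000843). Dact1 passed under 16 of 18 alternatives, and not with the GC correction (-0.47, adjusted p = 0.0793) or with that correction and background subtraction together (-0.48, adjusted p = 0.0788). Its exons share 1313 bases with 4930474H06Rik on the opposite strand. The strand setting of the counting is not given in the sources used here, so reads of the pair cannot be told apart, but the sum of both genes was still separate, at 61.0, 52.8 and 50.6 CPM in WT and 26.1, 28.4 and 22.4 CPM in MMP13KO.

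Dact3 (ENSMUSG00000078794, chr7:16875317-16887462, plus strand) stood at 28.6, 27.6 and 24.6 CPM in WT and 6.27, 5.91 and 6.58 CPM in MMP13KO. The samples of each genotype were close together and far from those of the other. The WT mean was 4.30 times the MMP13KO mean, with a log2 fold change of -2.10 (SE 0.15, adjusted p = 2.38e-05). Dact3 passed under all 18 alternatives, from -2.24 to -0.81. The background rate equalled 0.0605% to 0.0898% of its counts in WT and 2.44% to 12.8% in MMP13KO, the highest share of the 10 genes in MMP13KO 6. The ratio of Dact3 to Dact1 was 0.490, 0.683 and 0.643 in WT and 0.291, 0.264 and 0.361 in MMP13KO, with no overlap. The transcripts differ in GC content, 66.4% in Dact3 and 53.4% in Dact1, and after the GC correction they stood at -0.81 (SE 0.15) and -0.47 (SE 0.18) on the log2 scale, a difference that was not tested.

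The promoter windows were also searched for the GC box, the letters GGGCGG or, on the other strand, CCGCCC, to which Sp1 binds. This box occurred in 35.7% of the 32851 RefSeq windows. Counting boxes that overlap each other, the windows of 300 bases held 7 in Dact3, 6 in Dact1, 2 in Wif1, 2 in Dkk2, 1 in Frzb and 0 in Dkk1 and Sfrp2. Dact3 and Dact1, which fell, held most boxes, and Sfrp2, which also fell, held none. Dkk3 and Sfrp1 fell as well but had no matched window. Wif1, which rose, held as many as Dkk2, which did not pass the test. A relation of the boxes to the changes was not tested. The bases directly before the start are printed 5′ to 3′ on the strand of the gene for Dact1 and Dact3, which hold most boxes, for Sfrp2, which fell and holds none, and for Wif1, which rose. They span chr12:71309634-71309883 for Dact1, chr7:16875067-16875316 for Dact3, chr3:83766071-83766320 for Sfrp2 and chr10:121033754-121033959 for Wif1, with each GC box in capitals.
Dact1 promoter: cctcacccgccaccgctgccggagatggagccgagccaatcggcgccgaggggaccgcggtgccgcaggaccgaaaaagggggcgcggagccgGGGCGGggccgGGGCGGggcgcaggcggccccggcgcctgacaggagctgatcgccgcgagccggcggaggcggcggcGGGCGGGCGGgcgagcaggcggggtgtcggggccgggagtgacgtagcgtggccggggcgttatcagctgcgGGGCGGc
Dact3 promoter: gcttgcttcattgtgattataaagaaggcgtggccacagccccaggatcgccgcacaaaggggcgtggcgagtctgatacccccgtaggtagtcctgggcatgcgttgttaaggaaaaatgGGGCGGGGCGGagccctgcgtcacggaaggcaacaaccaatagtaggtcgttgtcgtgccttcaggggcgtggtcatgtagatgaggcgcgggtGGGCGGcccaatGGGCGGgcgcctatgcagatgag
Sfrp2 promoter: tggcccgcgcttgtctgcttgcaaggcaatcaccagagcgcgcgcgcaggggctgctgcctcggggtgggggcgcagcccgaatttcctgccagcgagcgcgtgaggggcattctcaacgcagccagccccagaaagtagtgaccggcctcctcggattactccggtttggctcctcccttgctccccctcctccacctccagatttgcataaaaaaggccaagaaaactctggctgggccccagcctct
Wif1 promoter: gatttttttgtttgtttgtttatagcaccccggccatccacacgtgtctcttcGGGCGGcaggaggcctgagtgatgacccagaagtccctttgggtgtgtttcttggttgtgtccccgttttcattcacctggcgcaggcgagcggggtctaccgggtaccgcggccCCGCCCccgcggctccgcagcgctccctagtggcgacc
The printed bases hold 5 of the boxes of Dact1, 4 of those of Dact3 and both of those of Wif1. The windows had a GC content of 79.7% in Dact1, 66.0% in Sfrp2, 64.7% in Frzb, 64.0% in Dact3, 63.0% in Wif1, 60.7% in Dkk1 and 57.7% in Dkk2, against a median of 52.7% over all windows.

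**Figure D2:**
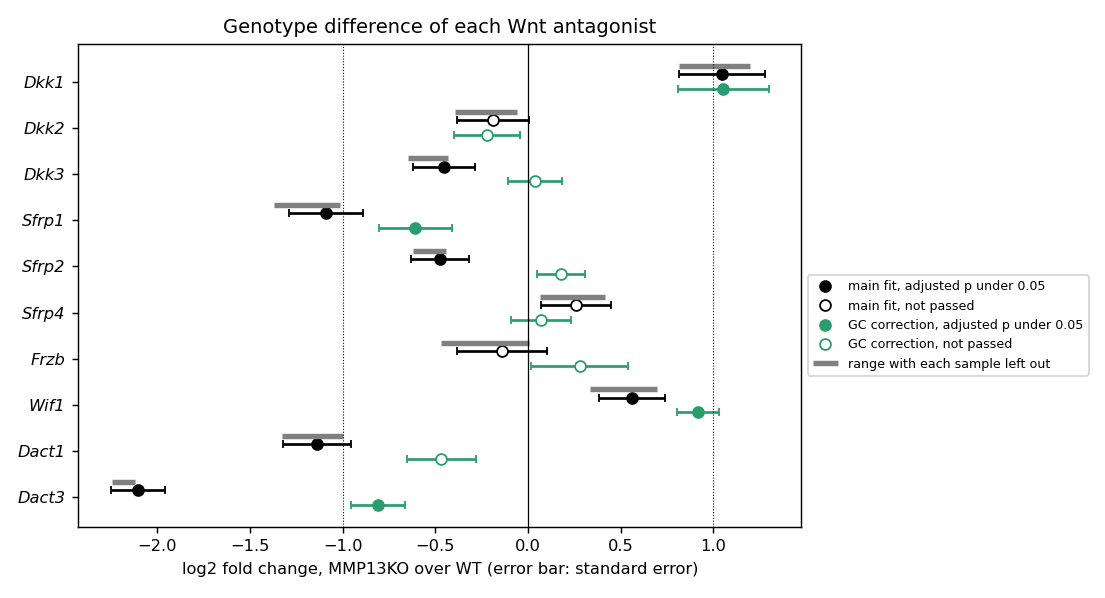
Log2 fold change of each Wnt antagonist (MMP13KO over WT, horizontal axis) with its standard error, without (black) and with (green) correction for transcript GC content, filled where the adjusted p was under 0.05, and in grey the range with each sample left out. Dact3, Dact1 and Sfrp1 lie at or below -1.09 without the correction and at -0.81, -0.47 and -0.61 with it, whereas Dkk1 lies at 1.05 in both.

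Over all genes the log2 fold change moved with the GC content of the transcript. In 10 nearly equal groups of the genes with a mean log2 CPM above 3, ordered by GC content, the median ran from 0.80 in the lowest group to -1.12 in the highest. Dact3, with a GC content of 66.4%, is among the most GC-rich of transcripts, and the other 9 antagonists have 44.4% to 53.4%. Against such genes within 2 percentage points of its own GC content, Dkk1 was higher than 92.9% of 2140 genes and Wif1 higher than 91.9% of 2357. Sfrp1 was lower than all but 7.23% of 2337 such genes, Dact1 than all but 12.7% of 2335, and Dact3 was lower than every one of 39, whose median was -1.28. Dkk3, Sfrp2, Sfrp4, Frzb and Dkk2 lay between 29.8% and 68.2% of the way up their groups.

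With the GC correction, 2 of the 10 genes were lower and 2 higher, where 9.32% of all genes tested were lower and 26.7% higher. Sfrp1 (-0.61, SE 0.20, adjusted p = 0.0419) and Dact3 (-0.81, SE 0.15, adjusted p = 0.00433) remained lower. Dkk1 (1.05, SE 0.25, adjusted p = 0.0123) and Wif1 (0.92, SE 0.11, adjusted p = 0.000854) remained higher. None of the 10 was then over 2-fold lower, and their median was 0.05 against 0.33 over all genes, which were not matched in level. Whether the relation to GC content comes from the libraries or from the tissue was not tested.

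**Figure D3:**
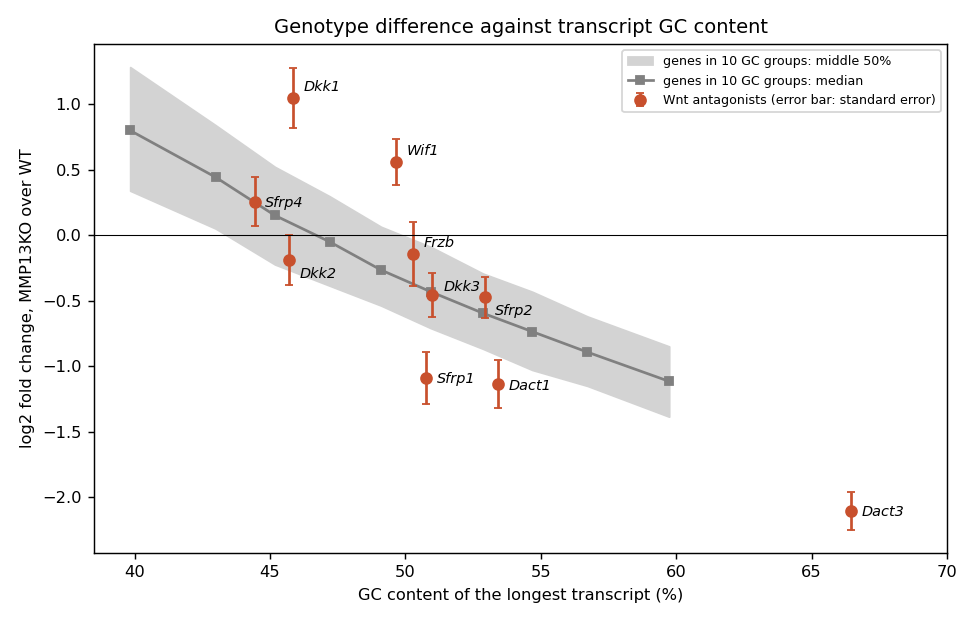
Log2 fold change (MMP13KO over WT, vertical axis) against the GC content of the longest transcript (percent, horizontal axis) for the 10 Wnt antagonists with standard errors, over the median and the middle 50% of genes with a mean log2 CPM above 3 in 10 GC groups. Dkk1 and Wif1 lie above the middle 50% at their GC content and Sfrp1 and Dact1 below it, while Dact3, at 66.4%, lies to the right of the last group's median.

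Levels of different genes were compared per kilobase of exon (CPM per kb). In WT, Sfrp2 was highest at 71.4 ± 6.64 (SD, n = 3), followed by Wif1 at 40.3 ± 1.92 and Dkk3 at 40.1 ± 5.93, whose ranges overlapped. Sfrp1 followed at 17.2 ± 4.64 and Dact1 at 12.1 ± 2.93, which overlapped, then Dact3 at 9.01 ± 0.702 and Sfrp4 at 7.11 ± 1.21, which overlapped as well. Dkk2 at 3.996 ± 0.955, Frzb at 3.13 ± 1.05 and Dkk1 at 2.10 ± 0.561 were lowest, each overlapping the next. Sfrp2, Wif1 and Dkk3 thus stood above the other 7 genes in the WT samples. In these samples the 8 skeletal muscle markers summed to 95214 to 111822 CPM, and which cells the antagonist levels come from was not tested.

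In MMP13KO, Wif1 came first at 59.5 ± 12.5 CPM per kb (SD, n = 3) with Sfrp2 at 51.4 ± 5.49, whose ranges overlapped, and then came Dkk3 at 29.2 ± 3.35. Sfrp4 at 8.48 ± 1.72 and Sfrp1 at 8.06 ± 0.164 overlapped. Dact1 at 5.50 ± 0.582, Dkk1 at 4.34 ± 0.831, Dkk2 at 3.49 ± 0.458 and Frzb at 2.84 ± 0.237 each overlapped the next. Dact3 was lowest at 2.09 ± 0.112 and apart from Frzb. From WT to MMP13KO, Wif1 moved from place 2 to place 1 and Dact3 from place 6 to place 10. Other genes moved too, among them Sfrp4 from place 7 to 4 and Dkk1 from place 10 to 7. In WT both Wif1 and Dact3 overlapped a neighbour. By CPM without division by length, Wif1 stood at place 3 and Dact3 at place 7 in WT.

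As shares of the summed level of the 10 genes, which do not depend on the scaling between libraries, Wif1 took 20.8%, 17.6% and 20.3% in WT and 34.7%, 36.2% and 30.4% in MMP13KO. Sfrp2 took 34.6% ± 2.54 in WT and 29.5% ± 1.61 in MMP13KO (SD, n = 3), and without division by length its shares overlapped. Sfrp1 went from 8.28% ± 2.11 to 4.66% ± 0.606, Dact1 from 5.91% ± 1.63 to 3.16% ± 0.242 and Dact3 from 4.37% ± 0.4003 to 1.21% ± 0.211, all without overlap. Dkk1 went from 1.02% ± 0.303 to 2.48% ± 0.319 and Sfrp4 from 3.43% ± 0.446 to 4.84% ± 0.735, also without overlap. The shares of Dkk2, Dkk3 and Frzb overlapped between the genotypes. The summed level itself overlapped, at 199 to 216 CPM per kb in WT and 157 to 201 in MMP13KO. Without division by length it did not overlap, at 560 to 623 CPM in WT and 435 to 551 CPM in MMP13KO. A share also moves when other members move, and the level of Sfrp4 itself overlapped between the genotypes. The shares were not corrected for transcript GC content, which differs between the 10 genes. These shares are a description, and no test was run on them.

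**Figure D4:**
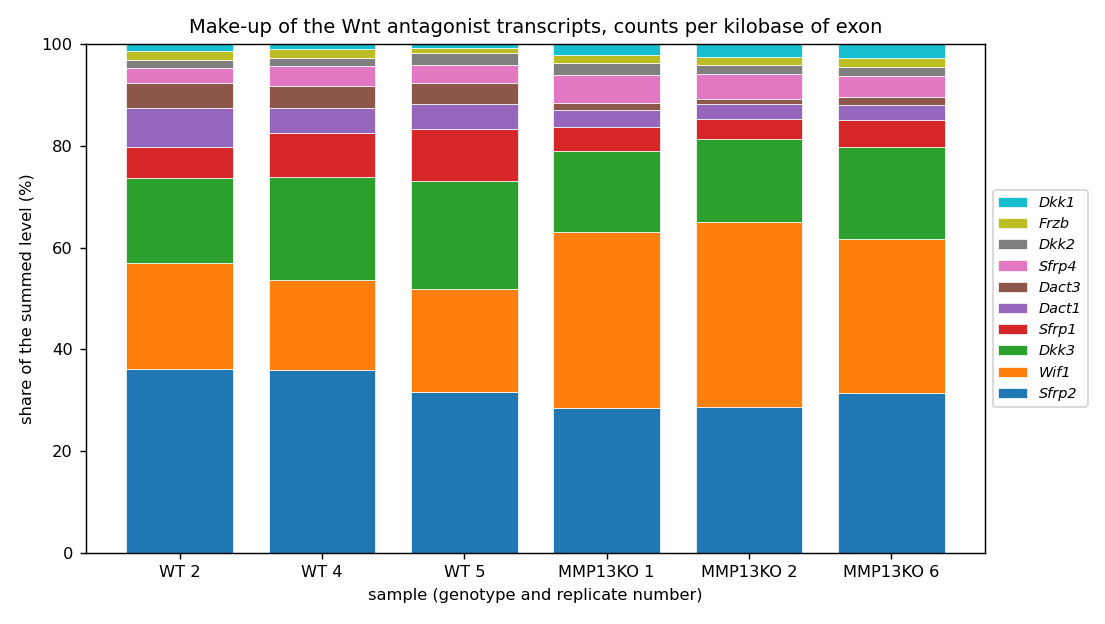
Share (percent, vertical axis) of each Wnt antagonist in the summed level of the 10 genes, counts per kilobase of exon, in each sample (horizontal axis, genotype and replicate number). The share of Wif1 is 17.6% to 20.8% in the WT samples and 30.4% to 36.2% in the MMP13KO samples, and the share of Dact3 is 4.03% to 4.81% in WT and 0.985% to 1.40% in MMP13KO.

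Other genes of the pathway were counted in 3 lists. Of 15 other Wnt antagonists, 14 were tested, of which 6 fell and 1 rose, with a median log2 fold change of -0.28. Over all genes tested, 24.3% were lower and 27.3% higher, and these shares and the median of 0.10 apply to each of the 3 lists. The lists were not matched to all genes in level or GC content. Kremen1, the co-receptor that works with Dkk1, stood at 191, 242 and 210 CPM in WT and 94.1, 95.5 and 88.1 CPM in MMP13KO, and fell by 1.21 on the log2 scale (SE 0.16, adjusted p = 0.000261). Kremen2 was under 2 CPM in every sample, with a log2 fold change of 0.63 (adjusted p = 0.423) that was -0.26 without MMP13KO 6. Igfbp4, a secreted protein that also binds Lrp6, fell by 1.05, and Shisa2, which retains Frizzled receptors inside the cell, fell by 1.46. Draxin fell by 1.10. With the GC correction Kremen1 and Shisa2 still passed the test, but Igfbp4 (-0.23, adjusted p = 0.214) and Draxin (-0.33, adjusted p = 0.393) did not. Dkkl1, a relative of Dkk3, rose by 1.79, from 0.160 to 0.511 CPM in WT to 0.902 to 1.95 CPM in MMP13KO, where the background rate equalled 8.95% to 22.8% of its counts. Dkkl1 had an adjusted p of 0.0775 without WT 2 and 0.0631 without WT 4. The 6 WT and MMP13KO samples were separate for each of these genes but Kremen2.

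The list called binding partners held 19 genes of receptors, co-receptors and Dishevelled proteins, among them the Wnt receptors Ror1, Ror2 and Ryk. Kremen1 and Kremen2 were counted with the other antagonists. All 19 genes were tested, of which 13 fell and 1 rose, with a median of -0.90. Lrp5, a co-receptor bound by the Dkk proteins, stood at 118 to 130 CPM in WT and 54.4 to 61.6 CPM in MMP13KO, and fell by 1.10 (SE 0.14, adjusted p = 0.000233). Lrp6, the other co-receptor, stood at 134 to 147 CPM in WT and 104 to 140 CPM in MMP13KO, with a log2 fold change of -0.13 (adjusted p = 0.517) that was 0.06 with upper-quartile factors. The Dishevelled genes, whose products Dact proteins bind, all fell. Dvl1 fell by 1.54, Dvl2 by 0.90 and Dvl3 by 1.33, and Dvl2 turned to 0.08 with the GC correction and had an adjusted p of 0.0544 with library totals. Ror2 and Fzd2, receptors for Wnt ligands, fell by 1.30 and 1.29. Lrp5 (-0.29, adjusted p = 0.129), Ror2 (-0.20, adjusted p = 0.373) and Fzd2 (-0.35, adjusted p = 0.108) did not pass with the GC correction, whereas Dvl1 and Dvl3 did.

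Of 15 canonical Wnt targets, 14 were tested, of which 8 fell and 1 rose, with a median of -0.58. Axin2, a feedback inhibitor widely used as a readout of the pathway, stood at 33.2, 29.5 and 23.3 CPM in WT and 11.2, 14.0 and 10.2 CPM in MMP13KO. It fell by 1.28 (SE 0.18, adjusted p = 0.000415), and Nkd1, another feedback inhibitor that binds Dishevelled, fell by 1.37. Dkk1, itself a known target, moved the other way. So did Bambi, the 1 listed target that rose, by 0.70 (SE 0.18, adjusted p = 0.00802). With the GC correction the lists had 3 lower and 3 higher of the other antagonists, 5 lower and 1 higher of the binding partners, and 2 lower and 1 higher of the targets, with medians of 0.13, -0.20 and -0.04. With that correction 9.32% of all genes tested were lower and 26.7% higher, with a median of 0.33. The 2 of 14 targets lower are thus near the share over all genes. These 2 are Axin2 and Nkd1, which were lower and passed the test under all 18 alternatives.

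**Figure D5:**
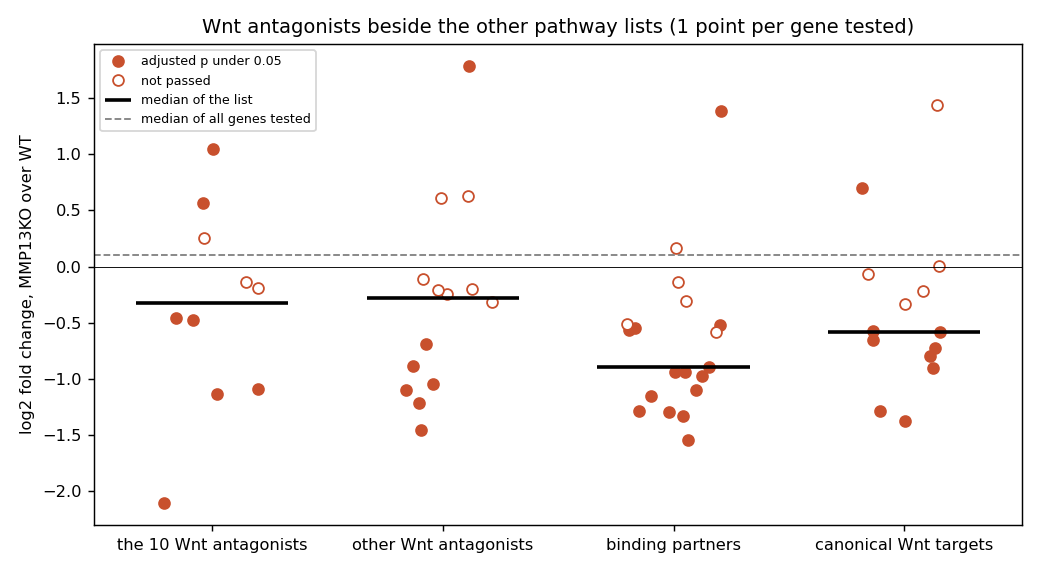
Log2 fold change (MMP13KO over WT, vertical axis) of every tested gene of the 4 lists (horizontal axis), filled where the adjusted p was under 0.05, with the median of each list as a bar and the median of all genes tested (0.10) as a dashed line. List medians lie at -0.32 for the 10 Wnt antagonists, -0.28 for the other antagonists, -0.90 for the binding partners and -0.58 for the canonical targets. All genes tested were not matched to the lists in level or GC content.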

How the data were processed

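The authors deposited estimated counts for 53342 Ensembl genes, obtained in Strand NGS from their alignments, together with normalized log2 values. For normalization the paper names the DESeq method and a threshold of 1. The submitters' processing notes name mm10 and DESeq. The aligner, its settings and the strand setting are not given in the sources used here.

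Counts were rounded, and edgeR 4.0.16 under R 4.3.3 was used to test them (quasi-likelihood test, TMM factors, filterByExpr by genotype, no covariates, Benjamini-Hochberg adjustment over 24534 genes). Genes changed at an adjusted p under 0.05, and over 2-fold at a log2 fold change of 1 or more in addition. SE is the log2 fold change divided by the square root of F. The procedure was tested on simulated data. P-values set the genotype difference against the variation between samples, estimated with information shared across genes. SD was taken over 3 samples. An exact permutation test of a single gene could not go below p = 0.1 with 3 samples against 3. Positions, exon length and GC content came from GENCODE M21 (GRCm38), matched by Ensembl identifier for 99.8% of genes. Promoter sequences came from RefSeq.

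Members and lists were chosen with earlier results of these data known. Named genes are the 10 members, Mmp13, the 8 odontoblast markers, up to 5 genes of each pathway list that changed over 2-fold, taken by adjusted p, Axin2, and the receptors and Dishevelled genes that the antagonists bind. Bambi is named as the 1 listed target that rose. Alternatives were RLE (median-of-ratios) factors, upper-quartile factors, library totals, TMM factors without the 10 most abundant genes, DESeq2 1.42.0, a filter of 10 counts in every sample, no filter, limma 3.58.1 on the deposited log2 values, a gene-by-gene equal-variance test with Storey's q (lambda fixed at 0.5, which is not how the study set it), a GC correction (loess, span 0.4, genes above a log2 CPM of 3, as offsets), background subtraction by exon length, both together, and each sample left out. Enamel epithelium markers (2 lower, 1 higher of 7) summed to 4570 to 5942 CPM in WT and 4504 to 5905 in MMP13KO, endothelium markers (3 lower, 1 higher of 6) to 229 to 269 and 168 to 234, and odontoblast markers (3 lower, 3 higher of 8) to 2021 to 3563 and 2807 to 4105. The shares over all genes tested were 24.3% lower and 27.3% higher. Replicate libraries correlated at 0.970 or above in log2 CPM within a genotype and at 0.907 to 0.942 across genotypes.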

Additional observations from a re-analysis of the deposited data

How the results depend on the processing

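With 3 samples a genotype, shifts as small as those of Dkk3, Sfrp2 and Wif1 lie near the threshold. Of 180 alternative values for the 10 log2 fold changes, 144 kept their direction and side of the threshold, 26 kept the direction but missed it, 1 newly passed and 9 turned. Scalings moved the median of all genes from 0.10 to 0.32 (upper-quartile factors), 0.21 (library totals) and, with the GC correction, 0.33. No paired analysis was possible because the genotypes share only the replicate number 2. Causes of the changes below were not tested. The 5 lower members became 3 with upper-quartile factors, library totals, the filter of 10 counts or background subtraction and 2 with the GC correction, alone or with background subtraction, and ranged from 3 to 5 with a sample left out. Among all genes, the 5955 of 24534 lower became 4618 with upper-quartile factors, 3065 with library totals and 2286 with the GC correction. They were 5037 of 19564 with the filter of 10 counts, 5466 of 22771 with background subtraction and 2587 of 22771 with both corrections. With a sample left out they ran from 5086 of 26952 (without WT 4) to 5959 of 26939 (without WT 2). The 2 higher became 1 with library totals, no filter or limma, and ranged from 1 to 2 with a sample left out (1 without WT 2, 4 or 5 or MMP13KO 1 or 2). Among all genes, the 6710 of 24534 higher became 6892 with library totals, 5999 with limma, 6801 with DESeq2 and 6542 with the GC correction. They were 12716 of 49715 with no filter, 5104 of 19564 with the filter of 10 counts and 4893 of 22771 with both corrections. With a sample left out they ran from 5829 (without WT 4) to 6905 (without WT 2). The 3 over 2-fold lower became 1 with upper-quartile factors and 0 with the GC correction, alone or with background subtraction, and ranged from 2 to 3 with a sample left out. Among all genes, the 2375 over 2-fold lower became 1338 with upper-quartile factors, 539 with the GC correction and 736 with both corrections. With a sample left out they ran from 2320 (without WT 4) to 3026 (without WT 2). The 1 over 2-fold higher became 0 with TMM factors without the most abundant genes or with no filter, and ranged from 0 to 1 with a sample left out (0 without WT 4, WT 5 or MMP13KO 2). Among all genes, the 5006 over 2-fold higher became 4601 with these TMM factors and 11258 of 49715 with no filter. With a sample left out they ran from 4826 (without WT 4) to 5725 (without WT 2). The counts over all genes apply to the lists that follow as well. Of the other antagonists, the 6 lower became 3 with the GC correction, alone or with background subtraction, and the 1 higher became 0 with the filter of 10 counts, 3 with the GC correction and 2 with both corrections, and ranged from 0 to 1 with a sample left out (0 without WT 2 or WT 4). The 13 lower binding partners became 8 with library totals and 5 with the GC correction, alone or with background subtraction. The 8 lower targets became 5 with upper-quartile factors, 3 with library totals and 2 with the GC correction, alone or with background subtraction, and the 1 higher target became 2 with library totals, no filter or DESeq2 and 0 with limma, and ranged from 0 (without WT 5) to 2 (without MMP13KO 1 or 2). Log2 fold changes turned as follows. With upper-quartile factors Dkk2 stood at 0.0131, Frzb at 0.0614 and Lrp6 at 0.0642. With the GC correction Dkk3 stood at 0.0387, Sfrp2 at 0.18, Frzb at 0.28 and Dvl2 at 0.0758, and with background subtraction in addition at 0.0622, 0.20, 0.23 and 0.0603. Lrp6 stood at 0.0048 with library totals and 0.0076 with background subtraction, Frzb between -0.47 (without WT 5) and 0.0076 (without WT 4) with a sample left out, and Kremen2 between -0.26 (without MMP13KO 6) and 0.89 (without MMP13KO 1).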
